A study of Homo sapiens with 8 samples.

Results

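The HSP70 family of molecular chaperones outside the endoplasmic reticulum (ER) was examined in A549, a human lung adenocarcinoma cell line that grows as an epithelium. The 10 listed genes were HSPA6, HSPA1A, HSPA1B, HSPA1L, HSPA2, HSPA8, HSPA9, HSPA14, HSPA4 and HSPA4L. Every probe set that the array annotation ties to one of them alone was taken, with no regard to its signal, and those tied to the near-identical pair HSPA1A and HSPA1B were kept as HSPA1A/B. This gave 20 probe sets of 9 genes, out of 54613 probe sets and 19775 named genes in all. HSPA6, HSPA1A/B, HSPA1L and HSPA4L had 2 each, HSPA2 had 1, HSPA14 had 3, and HSPA9 and HSPA4 had 4 each. HSPA8 had 0, because its 4 probe sets are also tied to the small nucleolar RNAs SNORD14C and SNORD14D, which lie within that gene. These 4 and 1 probe set tied to HSPA1A, HSPA1B and HSPA1L together are given apart.

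Cells were transfected with a small interfering RNA (siRNA) against steroid receptor coactivator 1 (SRC-1, gene NCOA1) or with a control siRNA. They were kept for 36 h in medium with 10% dialyzed serum, and then received DMEM with or without glucose, again with dialyzed serum. The 4 groups crossed the siRNA (SRC-1 or control) with the medium (with or without glucose). Each group had 2 Affymetrix arrays, which the labels call biological replicates. All cells were transfected, so no group shows untreated cells, and the length of the last step is not stated in the labels. Every value below is the deposited log2 signal of a probe set, on which 1 unit is a doubling, and differences are with minus without glucose, or SRC-1 minus control siRNA.

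HSP70 proteins bind exposed hydrophobic stretches of other proteins and release them in a cycle driven by ATP. J-domain proteins bring clients and start ATP hydrolysis, and nucleotide exchange factors, among them the large HSP70 relatives HSPA4 and HSPA4L, let the client go. HSPA6 and the HSPA1A/HSPA1B pair are the members induced by heat and other protein damage through heat shock factor 1 (HSF1), HSPA8 is the constitutive cytosolic form, and HSPA9 works in mitochondria.

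The sequence just upstream of the transcription start is shown for the inducible members and, for contrast, for HSPA4, since HSF1 acts through heat shock elements, inverted repeats of the unit GAA. The letters are those of RefSeq (GRCh38.p14), 250 bases before the annotated start, plus strand, and capitals mark heat shock elements of at least 2 units.
HSPA6, chr1:161524290-161524539: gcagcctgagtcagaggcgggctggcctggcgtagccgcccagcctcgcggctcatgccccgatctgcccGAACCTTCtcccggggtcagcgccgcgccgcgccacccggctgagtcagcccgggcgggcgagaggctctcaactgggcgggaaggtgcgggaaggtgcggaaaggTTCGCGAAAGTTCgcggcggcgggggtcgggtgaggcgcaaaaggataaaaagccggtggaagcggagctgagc
HSPA1A, chr6:31815293-31815542: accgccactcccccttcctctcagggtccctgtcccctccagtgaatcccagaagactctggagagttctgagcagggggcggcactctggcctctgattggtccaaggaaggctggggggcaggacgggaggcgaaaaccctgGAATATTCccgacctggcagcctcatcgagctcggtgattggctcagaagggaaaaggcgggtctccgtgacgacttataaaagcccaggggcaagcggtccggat
HSPA1B, chr6:31827488-31827737: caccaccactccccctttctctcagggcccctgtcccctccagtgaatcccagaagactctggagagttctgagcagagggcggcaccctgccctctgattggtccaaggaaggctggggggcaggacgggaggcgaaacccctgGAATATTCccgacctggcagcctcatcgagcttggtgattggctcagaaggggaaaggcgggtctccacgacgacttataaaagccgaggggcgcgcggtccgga
HSPA4, chr5:133051763-133052012: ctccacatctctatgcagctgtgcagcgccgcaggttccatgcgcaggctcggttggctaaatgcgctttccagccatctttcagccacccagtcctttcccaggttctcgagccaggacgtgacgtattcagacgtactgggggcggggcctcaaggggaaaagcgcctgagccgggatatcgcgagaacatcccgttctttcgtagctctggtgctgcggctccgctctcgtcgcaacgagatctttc

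Elements of 2 units were searched as GAANNTTC or TTCNNGAA and those of 3 units as GAANNTTCNNGAA, on both strands, so a 3-unit match also holds 2-unit matches. A 3-unit element was found in 0.442% of the 35097 distinct promoters in the table and a 2-unit element in 11.6%. The HSPA6 window held 1 element of 3 units, from 74 bases before the start, and 3 matches of 2 units, of which 2 overlap within it. HSPA1A and HSPA1B each held 1 element of 2 units, GAATATTC, and a TATA box (TATAAA, 10.7% of promoters), and shared 235 of 249 compared bases (94.4%) when set against each other with a shift of 1 base. The HSPA1L window, which lies on the opposite strand over nearly the same bases as that of HSPA1A, held the same 2-unit element. HSPA8 held 2 elements of 3 units. HSPA2, HSPA4 and HSPA9 held no such letters in these windows, and of the 3 annotated starts of HSPA4L 1 held a 2-unit element. The windows of HSPA2, of HSPA8 and of 2 of the HSPA4L starts lie within the annotated extent of their gene. HSPA14 was not searched. A match is a run of letters and not a measured binding site.

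The 8 array medians lay between 4.97 and 5. The signals of the 2 arrays of a group correlated at 0.997 to 0.998 over all probe sets. The number of arrays limits the precision. The median standard error (SE) was 0.107 for a difference between 2 groups and 0.0758 for the glucose difference averaged over both siRNAs. The targeted NCOA1 mRNA was lower with SRC-1 siRNA on all 4 of its probe sets in both media, with log2 differences of -3.19 to -2.01. All 6 epithelial markers tested (EPCAM, KRT7, KRT8, KRT18, KRT19 and CDH1) lay above the median of every array, as did 4 of 4 measured alveolar type II cell markers. Of the other markers, CD3E and HBB among those of blood cells, PECAM1 and VWF among those of endothelium and COL1A1 and PDGFRB among those of fibroblasts did so too. The 3' to 5' difference of the GAPDH controls was 0.139 to 0.172 with glucose and 0.123 to 0.141 without (p = 0.0571, adjusted p = 0.228, exact permutation test over 4 tests, two-sided). That of beta-actin was 0.513 to 0.643 with glucose and 0.414 to 0.535 without (p = 0.143, adjusted p = 0.286, exact permutation). With 4 arrays against 4 these tests cannot give a small adjusted p, so they do not show that the media were alike. Whether RNA quality had a part in the results below was not tested.

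Glucose set the members apart in both directions. Both probe sets of HSPA6, 1 of the 2 of HSPA1A/B and 2 of the 4 of mitochondrial HSPA9 were lower with glucose, while HSPA2, 2 of the 3 probe sets of HSPA14 and all of HSPA4 and HSPA4L were higher. Of the 20 probe sets, 14 passed the test on the glucose difference averaged over both siRNAs (limma, adjusted p below 0.05 over all probe sets), 9 higher and 5 lower with glucose. Of all probe sets 27.7% passed it, 14.4% higher and 13.3% lower, so a call alone is common in these data. The median difference was 0.17 for the members and -0.0004 for all probe sets. With SRC-1 siRNA 14 members were called, 9 higher and 5 lower, against 18.8% of all probe sets (10.1% higher and 8.77% lower). With control siRNA 13 were called, 8 higher and 5 lower, against 19.6% (10.1% higher and 9.52% lower). With both siRNAs 13 of the 20 were called in the same direction, against 15.1% of all probe sets. In 14 of the 20 the 4 arrays with glucose and the 4 without did not overlap, which was the case for 30.5% of all probe sets. These shares of all probe sets include dim ones, whereas 18 of the 20 members had a mean above the 60th percentile of signal (5.7). The members were not set against probe sets of like signal. The shares may therefore overstate how far the family stands out, and whether it does so among bright probe sets was not tested.

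HSPA6, a strictly inducible member that humans have and mice lack, had the largest difference of all probe sets. Its probe set 213418_at read 5.39 and 5.42 with SRC-1 siRNA with glucose, 11.23 and 10.80 with SRC-1 siRNA without glucose, 5.42 and 5.37 with control siRNA with glucose, and 10.61 and 11.69 with control siRNA without glucose. The 4 arrays with glucose lay close together and near the array medians, and the 4 without lay far above them and apart from each other. The means were 5.40 ± 0.028 with glucose and 11.08 ± 0.48 without (SD, n = 4 each), a difference of -5.68 ± 0.20 (SE), or 51.3-fold lower with glucose (limma, adjusted p = 3.02e-07). By size it ranked 1 of 54613 among the falls. In the bulk RNA of a culture, fewer cells that make a transcript and less of it per cell cannot be told apart.

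The second HSPA6 probe set, 117_at, read 4.77 and 4.82 with SRC-1 siRNA with glucose, 9.25 and 8.43 with SRC-1 siRNA without glucose, 4.55 and 5.18 with control siRNA with glucose, and 8.44 and 9.78 with control siRNA without glucose. It was 17.7-fold lower with glucose (-4.15 ± 0.29, limma, adjusted p = 8.37e-06) and ranked 5 among all falls. Both probe sets therefore gave the same direction with no overlap, and differed in size. With glucose both sat in the range where an array signal may be mostly background, so either fold may understate the difference. HSPA6 has a near-identical neighbouring pseudogene, HSPA7, and whether these probes also bind its transcript was not tested. HSPA6 lies on chromosome 1 at 161524540 to 161526894 (GRCh38.p14).

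HSPA1A and HSPA1B, the main inducible cytosolic HSP70s, encode nearly the same protein and share their probe sets. Probe set 202581_at read 10.96 and 10.97 with SRC-1 siRNA with glucose, 11.80 and 11.60 with SRC-1 siRNA without glucose, 10.92 and 10.86 with control siRNA with glucose, and 11.36 and 12.22 with control siRNA without glucose. Every array with glucose lay below every array without. The signal was 1.76-fold lower with glucose (10.93 ± 0.051 against 11.75 ± 0.36, SD, n = 4 each; -0.82 ± 0.16 SE, limma, adjusted p = 0.00356). The difference was -0.74 ± 0.22 with SRC-1 siRNA (adjusted p = 0.048, limma) and -0.90 ± 0.22 with control siRNA (adjusted p = 0.0199, limma). With each array left out in turn, the differences stayed negative, at -0.84 to -0.64 with SRC-1 siRNA and -1.33 to -0.47 with control siRNA. That with SRC-1 siRNA was still -0.74 without either array of control siRNA with glucose. Both calls within 1 siRNA were nevertheless lost without some single arrays. That with SRC-1 siRNA was lost without any 1 of the 4 SRC-1 siRNA arrays or of the 2 arrays of control siRNA with glucose (limma, adjusted p = 0.0642 to 0.216), and also with weights per array (0.0577) or median centring (0.0517). That with control siRNA was lost without replicate 1 or 2 of control siRNA with glucose (limma, adjusted p = 0.0688 and 0.0803) and in a fit of that siRNA alone (0.0532), and its size was -0.47 without replicate 2 of control siRNA without glucose. The averaged difference stayed called without any 1 array (-1.03 to -0.60).

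The other HSPA1A/B probe set, 200799_at, was brighter and moved less. It read 13.03 and 12.94 with SRC-1 siRNA with glucose, 13.14 and 13.13 with SRC-1 siRNA without glucose, 12.82 and 12.94 with control siRNA with glucose, and 12.99 and 13.60 with control siRNA without glucose. The media overlapped, and the difference of -0.28 ± 0.12 did not pass (95% interval -0.55 to -0.01, limma, adjusted p = 0.123). It was called only where replicate 1 of control siRNA without glucose was left out (-0.44, limma, adjusted p = 0.00367) or with a prior that follows the mean (adjusted p = 0.0152), and it was -0.13 without replicate 2 of that group (adjusted p = 0.285). The probe set tied to HSPA1A, HSPA1B and HSPA1L together, 200800_s_at, was 1.53-fold lower with glucose (-0.62 ± 0.19, limma, adjusted p = 0.0412).

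HSPA1L, which lies head to head with HSPA1A and is known mainly from testis, was not called. Its 2 probe sets read 5.11 to 5.93 with glucose and 5.33 to 5.79 without. Their differences were 0.09 ± 0.11 for 210189_at (95% interval -0.16 to 0.35) and -0.22 ± 0.08 for 233694_at (-0.41 to -0.04, limma, adjusted p = 0.0749). Changes of the size measured at 202581_at lie outside both intervals. Both probe sets read near the array medians, however, where a signal may be mostly background. Their intervals therefore say little about the HSPA1L mRNA. Probe set 233694_at was called without replicate 1 of control siRNA with glucose (-0.31, limma, adjusted p = 0.0128), with a filter at the 40th percentile (0.0444) and with a replicate block (0.0485), and it was -0.14 without replicate 2 of control siRNA with glucose (0.186).

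HSPA2, a member best known for its need in the meiosis of male germ cells in mice, was the largest rise of the family. It read 10.73 and 10.67 with SRC-1 siRNA with glucose, 8.44 and 8.39 with SRC-1 siRNA without glucose, 10.52 and 10.59 with control siRNA with glucose, and 8.42 and 8.57 with control siRNA without glucose. The media lay far apart and the replicates of a group close together. The means of 10.63 ± 0.090 with glucose and 8.45 ± 0.082 without (SD, n = 4 each) differed by 2.17 ± 0.064 (SE), which is 4.51-fold higher with glucose (limma, adjusted p = 1.53e-07). HSPA2 ranked 17 of 54613 among the rises. The difference was 2.28 ± 0.091 with SRC-1 siRNA and 2.06 ± 0.091 with control siRNA. A single probe set, 211538_s_at, of the _s_at type, stands for this gene, which lies on chromosome 14 at 64535905 to 64543237 (GRCh38.p14).

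HSPA14, an atypical HSP70 that joins the J-domain protein DNAJC2 at the ribosome, was higher with glucose on 2 of its 3 probe sets. Probe set 219212_at read 10.89 and 10.82 with SRC-1 siRNA with glucose, 9.89 and 9.86 with SRC-1 siRNA without glucose, 10.80 and 10.86 with control siRNA with glucose, and 9.89 and 9.91 with control siRNA without glucose. The 4 arrays within each medium were nearly alike. It was 1.94-fold higher with glucose (0.95 ± 0.059, limma, adjusted p = 4.4e-06).

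The other 2 probe sets of HSPA14 moved less. Probe set 227650_at read 8.27 to 8.30 with glucose and 7.83 to 7.91 without, a difference of 0.41 ± 0.058 (limma, adjusted p = 0.000562). Probe set 226887_at read 8.10 to 8.43 with glucose and 7.97 to 8.14 without, which overlap, and its difference of 0.24 ± 0.079 fell short (limma, adjusted p = 0.0537). It passed under 7 of the alternatives tried, with a filter on dim probe sets among them. The ribosomal partner DNAJC2, chosen for this pairing after its values were seen, differed by 0.06 ± 0.062 (limma, adjusted p = 0.587).

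The HSP110-type relatives HSPA4 and HSPA4L, which act as nucleotide exchange factors for HSP70, were higher with glucose on all 6 of their probe sets. HSPA4 208815_x_at read 11.45 and 11.46 with SRC-1 siRNA with glucose, 10.92 and 10.91 with SRC-1 siRNA without glucose, 11.48 and 11.50 with control siRNA with glucose, and 10.91 and 10.97 with control siRNA without glucose. The difference of 0.55 ± 0.057 is 1.46-fold (limma, adjusted p = 9.14e-05). The other HSPA4 probe sets differed by 0.57 ± 0.067 (211015_s_at), 0.60 ± 0.066 (208814_at) and 0.34 ± 0.067 (211016_x_at). None of the 4 overlapped between media, and 211016_x_at missed the threshold with control siRNA alone (0.30 ± 0.095, limma, adjusted p = 0.0574).

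HSPA4L 1556194_a_at read 7.73 and 7.61 with SRC-1 siRNA with glucose, 6.77 and 6.46 with SRC-1 siRNA without glucose, 7.68 and 7.77 with control siRNA with glucose, and 6.53 and 6.63 with control siRNA without glucose. All arrays with glucose were above all without, by 2.15-fold on average (1.10 ± 0.083, limma, adjusted p = 1.32e-05). The second HSPA4L probe set, 205543_at, read 8.42 to 8.75 with glucose and 7.81 to 8.14 without (0.63 ± 0.097, limma, adjusted p = 0.000967). With control siRNA alone its difference of 0.56 was no longer called without replicate 1 of control siRNA without glucose (0.39, limma, adjusted p = 0.143) or replicate 2 of control siRNA with glucose (0.45, adjusted p = 0.104).

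HSPA9, or mortalin, drives protein import into the mitochondrial matrix and helps build iron-sulphur clusters. Its 2 brightest probe sets were lower with glucose. Probe set 200691_s_at read 12.39 and 12.46 with SRC-1 siRNA with glucose, 12.80 and 12.84 with SRC-1 siRNA without glucose, 12.32 and 12.42 with control siRNA with glucose, and 12.87 and 12.89 with control siRNA without glucose. The media did not overlap, and the signal was 1.37-fold lower with glucose (-0.46 ± 0.060, limma, adjusted p = 0.000371). Probe set 200692_s_at gave nearly the same difference (-0.46 ± 0.062, limma, adjusted p = 0.000444).

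The remaining 2 HSPA9 probe sets did not show it. Probe set 200690_at read 9.09 to 9.36 with glucose and 9.16 to 9.35 without (-0.06 ± 0.074, 95% interval -0.23 to 0.11). The dim probe set 232200_at read 3.32 to 3.60 with glucose and 3.04 to 3.77 without (0.01 ± 0.12), and was the one member whose mean lay below the 40th percentile of all probe sets (4.38). The fall of 0.46 lies outside both intervals. At its low signal 232200_at may read mostly background, so the disagreement among HSPA9 probe sets rests on 200690_at. The fall itself rests on the 2 probe sets of the _s_at type.

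HSPA8, the constitutive cytosolic HSP70 that also strips clathrin from vesicles, can be read only through the 4 probe sets shared with the small nucleolar RNAs. Probe set 210338_s_at read 13.40 and 13.37 with SRC-1 siRNA with glucose, 12.81 and 12.77 with SRC-1 siRNA without glucose, 13.43 and 13.38 with control siRNA with glucose, and 12.70 and 12.90 with control siRNA without glucose. It was 1.51-fold higher with glucose (0.60 ± 0.066, limma, adjusted p = 0.000131). The other 3 were higher by 0.33 to 0.47 (limma, adjusted p = 0.000591 to 0.0134). Whether these signals come from the HSPA8 mRNA or from the RNAs within it was not tested. With these 4 and the probe set shared by the HSPA1 genes added, 19 of 25 were called for the averaged difference. Of all probe sets, which include dim ones, 27.7% were called.

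The effect of SRC-1 siRNA was then examined in each medium. With glucose 0 of the 20 members passed the test and 0 had an unadjusted p below 0.05, against 4 called probe sets of 54613 (0.00732%) and 5.84% with an unadjusted p below 0.05. Without glucose 0 of 20 passed and 0 had an unadjusted p below 0.05, against 4 (0.00732%) and 3.76%. The 4 called in each medium were the probe sets of NCOA1. Averaged over both media 0 members were called and 0 had an unadjusted p below 0.05, against 0.011% and 5.13% of all probe sets (limma in each case).

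With glucose the member differences lay between -0.07 and 0.14, and without glucose between -0.28 and 0.35. The widest intervals were those of HSPA6 117_at, which allow -0.98 to 0.85 with glucose and -1.19 to 0.64 without (95% intervals). For HSPA6 213418_at they were -0.63 to 0.66 with glucose and -0.79 to 0.51 without. HSPA2 differed by 0.14 with glucose (-0.06 to 0.35) and by -0.08 without (-0.28 to 0.13). HSPA4 208815_x_at had intervals of -0.22 to 0.14 with glucose and -0.20 to 0.16 without. A change of 1.5-fold, which is 0.58 on this scale, thus lies outside the intervals of HSPA2 and of this HSPA4 probe set in either direction. It lies inside those of HSPA6, except that the interval of 213418_at without glucose does not reach a rise of that size.

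**Figure D1:**
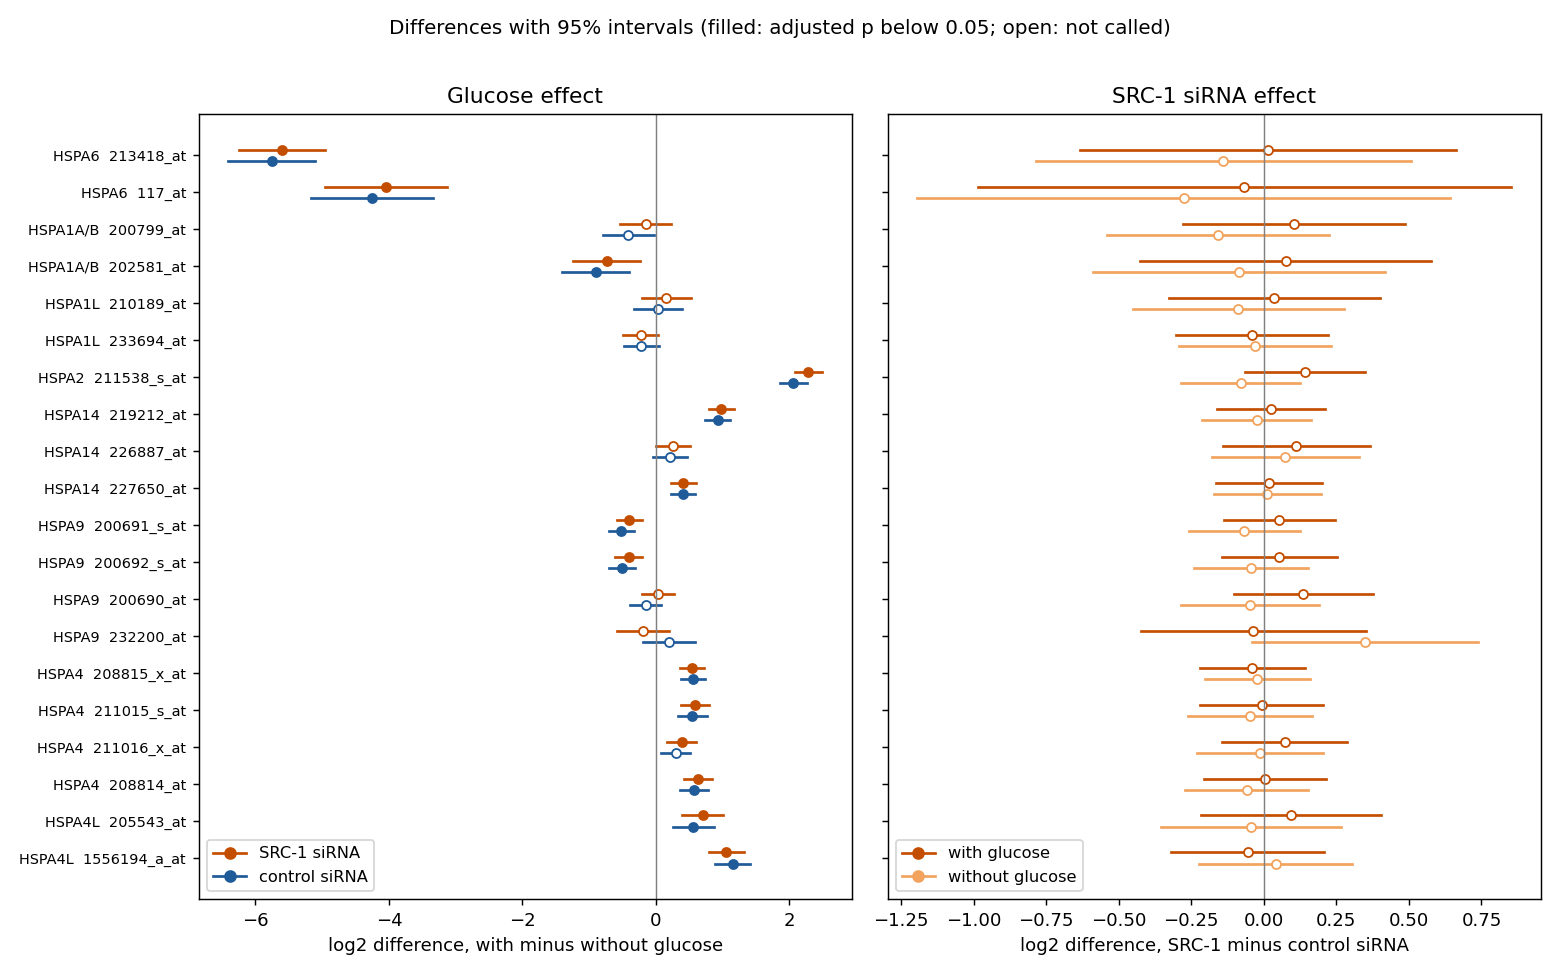
Log2 differences with 95% intervals for the 20 probe sets, with minus without glucose on the left (each siRNA) and SRC-1 minus control siRNA on the right (each medium). Filled points passed an adjusted p of 0.05 and open points did not. The glucose differences run from -5.76 to 2.28 and nearly coincide between the siRNAs, and all points on the right are open.

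Whether SRC-1 siRNA altered the response to glucose was tested as the interaction of both factors. Of the 20 members 0 passed and 0 had an unadjusted p below 0.05, against 0 of 54613 probe sets called (0.0%) and 4.39% with an unadjusted p below 0.05 (limma). The interaction was 0.15 ± 0.40 for HSPA6 213418_at (95% interval -0.76 to 1.07) and 0.22 ± 0.13 for HSPA2 (-0.07 to 0.51). The largest difference between the arms in any member was 0.38, at the dim HSPA9 probe set 232200_at. A change of the HSPA6 response within its interval was not detectable with 2 arrays per group.

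The inducible members also differed between the 2 arrays of control siRNA without glucose. Replicate 2 read above replicate 1 by 1.09 and 1.34 for the HSPA6 probe sets and by 0.86 and 0.61 for those of HSPA1A/B. By size, the 2 HSPA6 differences ranked 7 and 4 among all 54613 probe sets of this pair. In that array 17 of the 20 members were the higher of the pair, and 16 of the 17 other genes in a list of heat shock factors and heat-inducible genes (median 0.25), against 52.2% of all genes (median 0.0072). BAG3 (0.67), DNAJB1 (0.64), CHORDC1 (0.48) and HSPH1 (0.47) had the largest differences of that list. They were named after their values were seen. The ER members HSPA5, HSPA13 and HYOU1 were higher in that array in 1 of 3. In the other groups the same list was higher in replicate 2 for 14 of 17 genes (SRC-1 siRNA with glucose), 4 of 17 (SRC-1 siRNA without glucose) and 7 of 17 (control siRNA with glucose). HSPA6 differed within other groups too. With SRC-1 siRNA without glucose, replicate 2 minus 1 was -0.82 for 117_at (rank 15) and -0.425 for 213418_at (rank 1419). With control siRNA with glucose it was 0.63 (rank 398) and -0.06, and with SRC-1 siRNA with glucose 0.06 and 0.03.

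**Figure D2:**
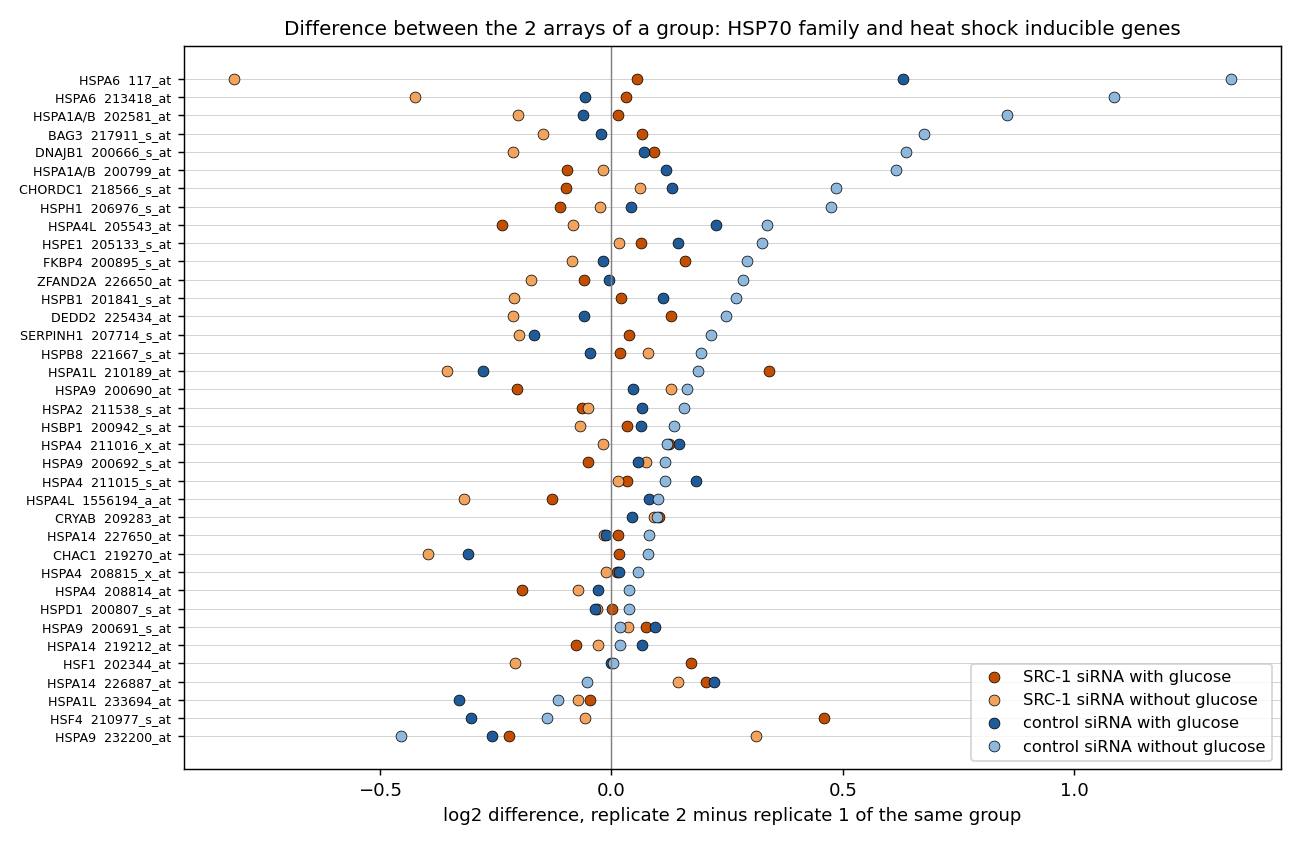
Log2 difference between the 2 arrays of each group (replicate 2 minus replicate 1, horizontal axis) for the 20 member probe sets and the 17 other heat shock genes, a point per group and ordered by control siRNA without glucose. In that group the points of HSPA6, HSPA1A/B, BAG3, DNAJB1, CHORDC1 and HSPH1 lie at 0.47 to 1.34, and no other group shows that order.

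The partners of the family were taken from lists by role, each gene read at its brightest probe set. Of all 19775 genes, 34.6% were called for the averaged glucose difference, 18.6% higher and 16.0% lower, with a median of 0.0001. The ER members of the HSP70 family went one way. HYOU1 was 6.29-fold lower with glucose (-2.65 ± 0.058, 8.42 ± 0.059 against 11.07 ± 0.032, SD, n = 4 each), HSPA5 3.32-fold lower (-1.73 ± 0.058) and HSPA13 2.48-fold lower (-1.31 ± 0.072), all called (limma, adjusted p = 5.03e-08 to 2.42e-06).

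J-domain proteins of the ER were lower with glucose in 6 of 6 genes (median -1.31). Among them were DNAJB11 (-1.87 ± 0.058), DNAJB9 (-2.28 ± 0.072), DNAJC3 (-1.71 ± 0.059) and DNAJC1 (-0.84 ± 0.061), which serve HSPA5. The list of J-domain proteins of cytosol and nucleus also holds proteins of the ER membrane, DNAJB12, DNAJB14 and DNAJC18 among them. It was mixed, with 4 of 26 higher, 8 lower and 14 not called (median -0.06). DNAJC18 (-1.11 ± 0.078), DNAJC12 (-0.85 ± 0.074) and DNAJC6 (-0.56 ± 0.059), an uncoating partner of HSPA8 at clathrin-coated vesicles, were lower. The histone chaperone DNAJC9 was higher (0.55 ± 0.061).

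Of 7 nucleotide exchange factors of cytosolic HSP70, other than HSPA4 and HSPA4L, 1 was called, BAG1, which was lower with glucose (-0.37 ± 0.068, limma, adjusted p = 0.00264). HSPH1, which is also of the HSP110 type, was not called (0.09 ± 0.099, limma, adjusted p = 0.595). It was chosen for naming here after its values were seen. The median of the list was -0.01. Of 13 genes listed as mitochondrial partners of HSPA9, 2 were higher, 4 lower and 7 not called (median -0.09). The list is broad and also holds chaperonin subunits such as HSPE1. Whether each of its genes acts with HSPA9 was not tested. PAM16, a part of the import motor, was lower (-0.57 ± 0.061), as was the exchange factor GRPEL2 (-0.42 ± 0.069), while the chaperonin subunit HSPE1 (0.58 ± 0.082) and DNAJC11 (0.36 ± 0.060) were higher. Without probe sets of the _s_at and _x_at types the mitochondrial count was 3 called and that of the exchange factors 2.

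Genes of HSP90 and of the passage of clients from HSP70 to HSP90 were higher with glucose in 9 of 13 and lower in 0 (median 0.24). Within 1 siRNA fewer passed, 5 of 13 higher with SRC-1 siRNA and 2 of 13 with control siRNA, against 13.5% and 13.1% of all genes. FKBP5, an HSP90-binding prolyl isomerase, was 2.24-fold higher (1.17 ± 0.076), and HSP90AB1 (0.36 ± 0.059), CHORDC1 (0.52 ± 0.10) and PPID (0.36 ± 0.074) were called as well. The heat shock list holds HSF1, HSF4, the HSF-binding protein HSBP1 and genes raised by heat or other protein stress, of which CHAC1 is better known as a target of the transcription factor ATF4. It gave 3 higher, 6 lower and 8 not called of 17 (median -0.0005), with HSF1 (-0.28 ± 0.072) and CHAC1 among the lower. With SRC-1 siRNA 3 were higher and 5 lower, against 13.5% and 10.9% of all genes, and with control siRNA 1 was higher and 3 lower, against 13.1% and 11.9%. ZFAND2A was 5.07-fold lower with glucose (-2.34 ± 0.079, limma, adjusted p = 2.6e-07). CHAC1 (-1.49 ± 0.10) and the collagen chaperone SERPINH1 (-0.65 ± 0.080) were lower too, while HSPE1, counted above, was higher. Among those not called, the small heat shock protein HSPB1 differed by -0.0005 ± 0.082 (limma, adjusted p = 0.998). DNAJB1, also not called, differed by -0.35 ± 0.13 (limma, adjusted p = 0.0752). HSPB1, DNAJB1 and HSF1 were chosen for naming after their values were seen. HSPE1, HSPD1, CHORDC1, FKBP4, DNAJB1, HSPH1 and BAG3 stand in 2 of these lists. With SRC-1 siRNA 0 genes of any of the 7 lists were called in either medium, against 0.00506% of all genes.

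**Figure D3:**
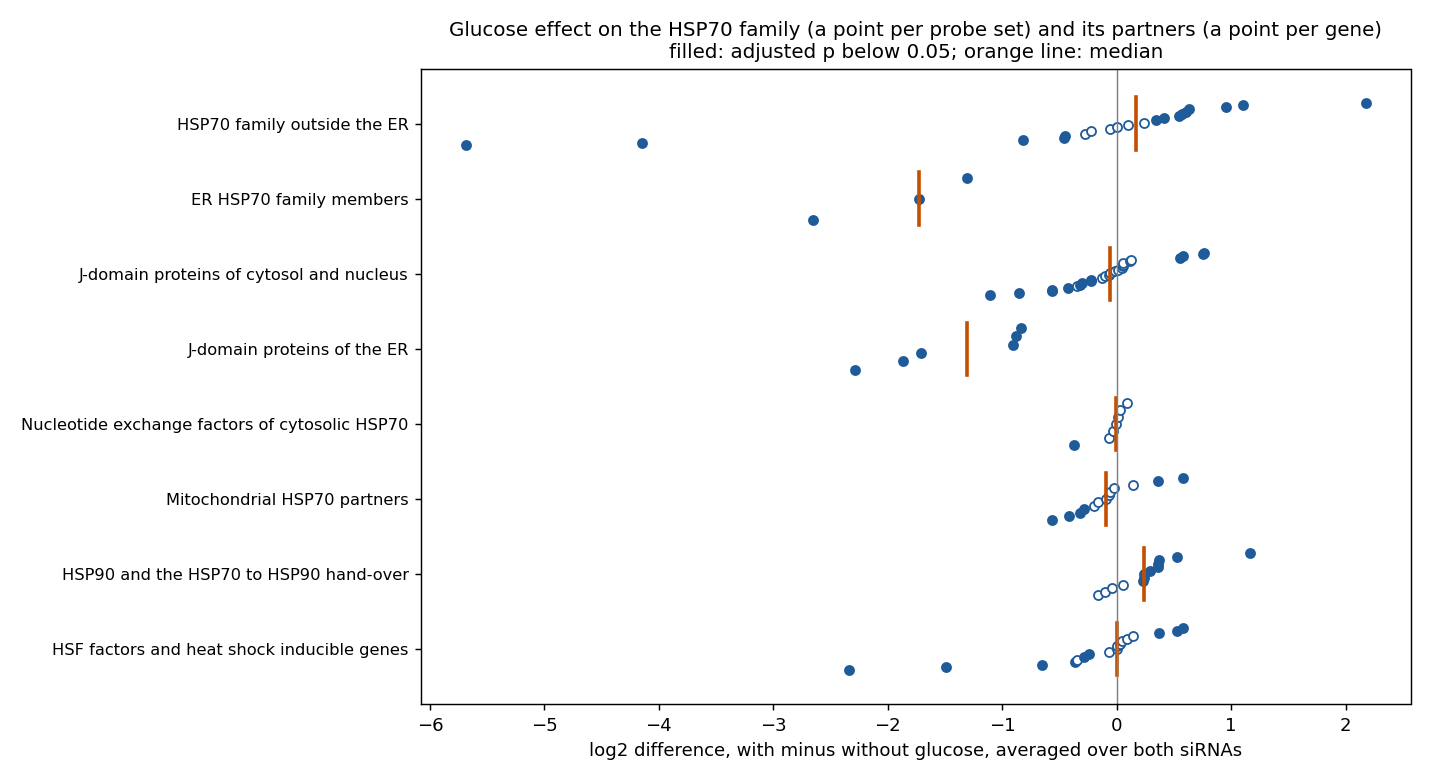
Averaged glucose difference (log2, with minus without) of each member probe set (top row) and of each gene of the 7 partner lists, filled where adjusted p was below 0.05, with an orange line at each median. The members spread from -5.68 to 2.17, all genes of the 2 ER lists lie at or below -0.84, and 9 of 13 HSP90 genes are called above 0.

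The genes whose log2 values over the 8 arrays lay nearest to those of 3 members were listed by Euclidean distance, after each gene was centred on its own mean. For HSPA6 they were DDIT3 (distance 2.05), NIBAN1 (2.32), RAB39B (2.54), ATF3 (3.08) and BEX4 (3.3). None came close in size, since DDIT3, the nearest, differed by -4.38 between media against -5.68 for HSPA6. For HSPA2 they were MCM10 (0.28), ZNF367 (0.284), CCNE2 (0.312), PCGF3 (0.376) and HELLS (0.386). HELLS, the farthest of them, differed by 2.32 between media against 2.17 for HSPA2. For HSPA14 they were SKA3 (0.0899), TNS3 (0.108), HJURP, PBK and MMD (0.109 each), with differences of 0.94 to 1.01. The distance is a description over arrays that are split by medium, and it was not tested.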

How the data were processed

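The deposited table holds 1 value per probe set and array for 8 arrays of A549 cells, which were used as log2 signal. The authors' background correction, probe summary and normalization are not given in the sources used here. The log base was read from the values, since neighbouring hybridization spikes stand 1.94 and 2 units apart. Per the labels' protocols, the RNA came from RNeasy kits and was labelled with biotin as cRNA by Affymetrix's usual protocol. Groups and replicate numbers come from the labels, and nothing says how replicate cultures were kept apart, so the spread behind the p-values is that among these arrays, which may be technical.

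Names came from the array annotation and RefSeq (GRCh38.p14): of 54675, 62 were controls, 41091 had 1 gene, 1801 several and 11721 none. All 54613 others entered 1 limma fit (limma 3.58.1, R 4.3.3) with a mean per group and no filter on low signals, so that every member was tested. Contrasts were moderated (eBayes, 4 residual and 5.0 prior degrees of freedom), two-sided and adjusted by Benjamini-Hochberg over all probe sets, with a threshold of 0.05. The fit was tested on simulated arrays. Other steps used Python 3.11.15, pandas 2.3.3 and scipy 1.17.1.

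The members, the lists and the tests were chosen with earlier results of these data known. Every member probe set is given. Of each partner list up to 4 called genes with the smallest p are named, with all 3 ER members, and for HSPA6, HSPA2 and HSPA14 the 5 nearest genes. DNAJC25, AHSA1 and HSF2 of the lists had no probe set of their own and were not analysed here. Replicate numbers were checked for pairing. Over the 6 pairs of groups, same-numbered arrays deviated from their group means with correlations of -0.029 to 0.086. The labels do not say that a number marks a shared culture or day, so the fit had no block. These correlations do not exclude such pairing. Scanner files, detection calls and protein sequences were not used here.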

Additional observations from a re-analysis of the deposited data

How the results depend on the processing

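The alternatives were quantile normalization, median centring, filters at the 40th and 60th percentiles, a prior that follows the mean, weights per array, a fit restricted to the compared groups, a replicate block and leaving out each array in turn. Over these, 891 of 931 member values of the glucose comparisons kept their direction and their side of the threshold, or changed sign only where they were not called. The call was lost in 23, all in comparisons within 1 siRNA, and gained in 17. No called value reversed. The 14 called members of the averaged difference became 14 to 16 when an array was left out. With SRC-1 siRNA the 14 became 10 to 14, and with control siRNA the 13 became 11 to 13. All 931 member values of the SRC-1 comparisons and all 297 of the interaction stayed uncalled. With the replicate block 16 members were called for the averaged difference, 13 with SRC-1 siRNA and 13 with control siRNA. Probe set 202581_at with SRC-1 siRNA then lost its call (adjusted p = 0.0539, limma). Whether the replicate numbers pair the samples is not known from the labels.

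Over all probe sets, the calls for glucose ranged from 6745 to 10416 with SRC-1 siRNA and from 6686 to 10281 with control siRNA when an array was left out, against 10285 and 10730 with all arrays. A prior that follows the mean called 8 probe sets for SRC-1 siRNA without glucose and 15 for its average, against 4 and 6. Without _s_at and _x_at probe sets, 2 genes listed as exchange factors and 3 listed as mitochondrial partners were called, against 1 and 6. The cause of these moves was not tested. Adding the 5 probe sets tied to several genes was an alternative chosen after seeing the data. It gave 17 called of 25 with SRC-1 siRNA, 16 with control siRNA and 19 for the average. The shares of all probe sets were 18.8%, 19.6% and 27.7%.

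With 2 arrays per group, a left-out array leaves a lone array whose spread is assumed to be that of the other groups. Signals near background have compressed folds, and no detection calls were used.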
